A study of Mus musculus with 6 samples.

Results

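DNA methylation was described at the promoters of 10 germline genes, Dazl, Ddx4, Mael, Tdrd1, Piwil1, Sycp1, Sycp3, Hormad1, Stag3 and Tex101, in the dentate gyrus, a subregion of the hippocampus. A row is 1 cytosine of a CpG with its methylation level, the percent of reads covering it that were methylated, and a promoter here is the sequence within 1 kb of any transcription start of the gene. By that rule 9 of the 10 genes had rows, 109 in all, out of 540155 promoter rows and 890041 rows in the whole table. Positions are on mm10 and gene models are from GENCODE M21. Reduced representation bisulfite sequencing (RRBS), which cuts DNA at CCGG and reads unmethylated cytosines as converted bases, was run on micro-dissected tissue of 6 female C57BL/6JRj mice aged 4.5 months. Of these, 3 mice had been kept in standard cages (libraries STD1 to STD3) and 3 in an enriched environment (ENR1 to ENR3) from 6 weeks of age, and each library came from 1 mouse. No genotype or other treatment separated the groups. By the study's methods, enriched mice of an experiment lived together and standard mice in smaller groups. Cage and group size therefore cannot be told apart from housing. The files used here hold methylation and no expression, so the tissue label could not be checked with marker genes and nothing is said of whether the genes were transcribed.

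Germline genes serve the making of eggs and sperm, and many of them have CpG-rich promoters. Most CpG-rich promoters stay free of DNA methylation in all tissues, whereas a group of germline promoters acquires it in the early embryo and keeps it in body tissues, where it is part of how these genes are held silent. Before that, several are bound by a noncanonical Polycomb complex in which Mga and Max recognise the E-box CACGTG and E2f6 recognises E2F-type sites.

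Across the 9 measured genes, methylation was far above that of other promoters in every mouse, but it was not uniform. Tex101, Hormad1, Sycp3, Mael, Ddx4 and Tdrd1 had promoter means over 50%. Dazl combined methylated rows in its first intron and upstream of the gene with an unmethylated further start inside the gene. Stag3 had rows close to 0% that it shares with the promoter of a neighbouring gene, and Sycp1 had a single row at an intermediate level. Piwil1 had no row within 1 kb of a start.

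Sequences are printed 5′ to 3′ on the strand of the germline gene, from the GRCm38 (mm10) genome of RefSeq. The first set is shown because the clearest contrasts in methylation lie within single promoters, and capitals mark the CpGs whose methylation was measured. The Dazl stretch at the intragenic start is chr17:50292863-50292912 on the minus strand, the Dazl first-intron stretch is chr17:50293326-50293366 on the minus strand, the stretch between the Gpc2 and Stag3 starts is chr5:138280006-138280135 on the plus strand, and the Hormad1 stretch is chr3:95559226-95559259 on the plus strand.
Dazl, intragenic start: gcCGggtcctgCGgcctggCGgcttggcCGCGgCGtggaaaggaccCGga
Dazl, first intron: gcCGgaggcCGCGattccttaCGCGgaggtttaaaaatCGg
Gpc2 to Stag3: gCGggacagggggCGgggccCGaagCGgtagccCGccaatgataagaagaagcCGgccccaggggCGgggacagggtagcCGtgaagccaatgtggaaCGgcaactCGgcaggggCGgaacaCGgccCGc
Hormad1, upstream: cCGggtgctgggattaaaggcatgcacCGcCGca
The mean methylation level over 6 libraries was 2.53% for the 13 rows of the first stretch, 96.1% for the 6 rows of the second, 1.13% for the 19 rows of the third and 90.2% for the 3 rows of the fourth. Within Dazl, CpG-rich sequence therefore stood at both ends of the scale.

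The second set is shown for the E-box, with the motif in capitals and 30 bases for each site. The RefSeq promoter windows, 250 bases before to 50 after a start, were searched on both strands for CACGTG, which is its own reverse complement, and for the E2F-type sequence GCGGGAA, and no match of one overlapped a match of the other in these genes. All 10 genes had a window. CACGTG was found in 8 of 10, all but Dazl and Tex101, against 8.09% of 27025 genes, and GCGGGAA was found in Ddx4, Hormad1, Stag3 and Sycp3, 4 of 10, against 5.29% of genes. The 4 genes with GCGGGAA also held CACGTG. The sites are at chr13:112652322-112652351 on the minus strand for Ddx4, chr1:166238950-166238979 on the minus strand for Mael, chr5:138280327-138280356 on the plus strand for Stag3, chr3:102936177-102936206 on the minus strand for Sycp1 and chr19:56826186-56826215 on the plus strand for Tdrd1.
Ddx4: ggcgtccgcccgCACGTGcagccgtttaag
Mael: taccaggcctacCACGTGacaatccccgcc
Stag3: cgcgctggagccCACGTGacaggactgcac
Sycp1: tagagaacccggCACGTGggaagggaaatc
Tdrd1: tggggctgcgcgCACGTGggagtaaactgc
A match is a match of letters and says nothing of binding. Of all motif matches in the 10 genes, 1 held a measured row, the one in Ddx4.

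In each library the member rows were set against all other promoter rows, whose level is near zero. The mean over the 109 rows was 49.8%, 49.4% and 47.6% in STD1 to STD3 and 51.0%, 52.1% and 47.7% in ENR1 to ENR3. Over the other 540046 promoter rows it was 6.66%, 6.61% and 6.09% in STD1 to STD3 and 6.62%, 6.58% and 5.70% in ENR1 to ENR3. The germline rows were higher in all 6 libraries, by 43.2 ± 1.5 percentage points (SD, n = 6). No p is given for this score, since the genes were chosen with results of these data known.

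**Figure D1:**
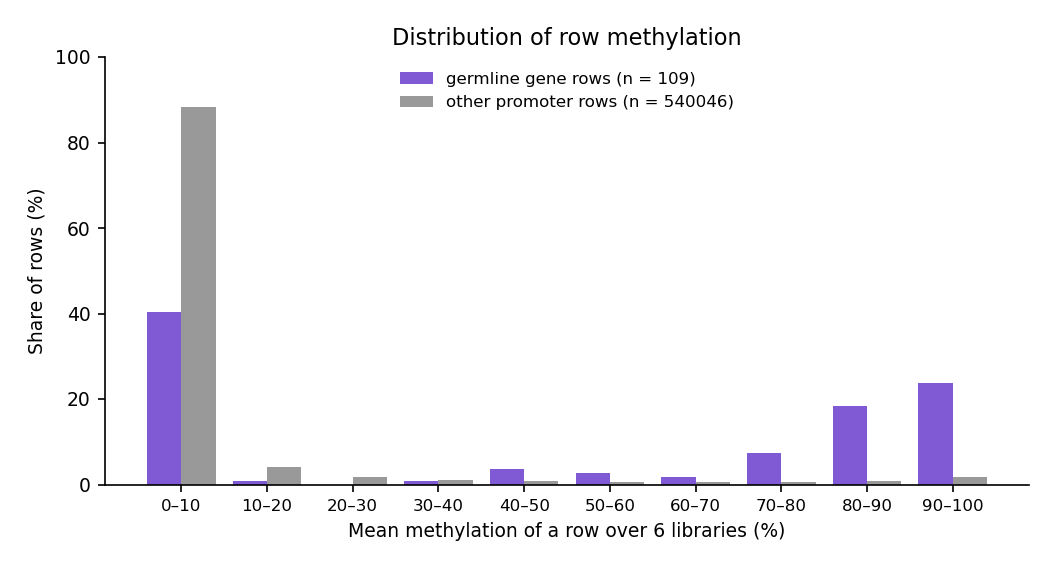
Share of rows (%) in each 10-point class of the mean methylation level over 6 libraries, for the 109 germline gene rows and the 540046 other promoter rows. The germline rows have a class of 44 rows under 10% and 46 rows over 80%, whereas 88.3% of other promoter rows are under 10%.

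The rows fell into a low and a high class with few between them, as the histogram of row levels shows. A mean over 50% was reached by 59 of 109 germline rows (54.1%) and by 4.10% of other promoter rows. A level of 0% in all 6 libraries was held by 19 germline rows (17.4%) and by 44.9% of other promoter rows, and all 19 were in Dazl or Stag3. Without these genes, 53 rows remained, of which 49 were over 50% and none was under 10%, with a mean of 81.3 ± 4.28% (SD, n = 6).

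Pooled over genes, local CpG density was much the same in both sets of rows. A row was called island-like when the 201 bases around it had a G and C content of 50% or more and a ratio of observed to expected CpGs of 0.6 or more. Of the germline rows 85.3% were island-like, against 78.4% of other promoter rows. Island-like germline rows had a mean of 47.5 ± 2.11%, and island-like rows of other promoters 3.02 ± 0.168% (SD, n = 6). For rows not island-like the means were 62.0 ± 2.49% and 18.6 ± 1.22% (SD, n = 6). By gene, the mean ratio was under 0.6 at Tex101 (0.582), Hormad1 (0.399), Sycp3 (0.565) and Sycp1 (0.413), and 0.699 to 0.975 at the others. Tex101, Hormad1 and Sycp3 also had the highest promoter means. Sequence masked as repeat in the RefSeq genome held 6 of the 109 germline rows, among them all 3 of Hormad1, and 3.28% of other promoter rows, where the mean was 15.1 ± 0.682%. The 103 unmasked germline rows had a mean of 47.9 ± 1.82% (SD, n = 6).

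**Figure D2:**
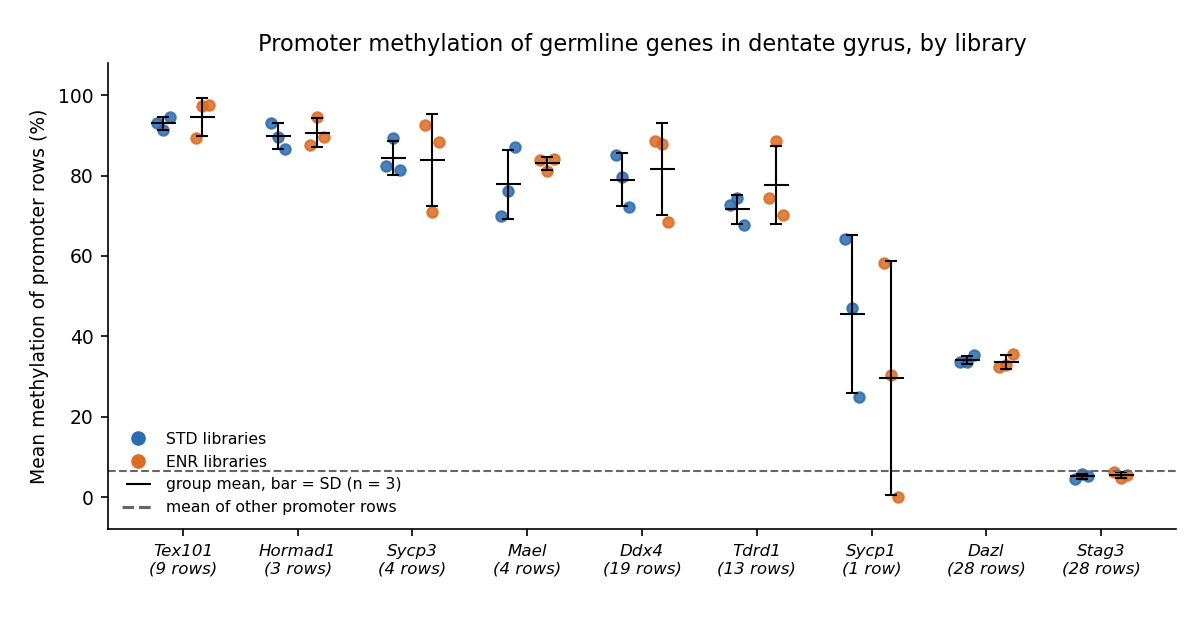
Mean methylation level of the promoter rows of each gene (%) in each library, STD in blue and ENR in orange, with the group mean and SD (n = 3) as bars and the mean of other promoter rows as a dashed line. Of the 9 genes, 7 lie above the line in all 6 libraries, Sycp1 in 5 and Stag3 in 0, and the groups overlap at every gene.

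Gene by gene, 7 of the 9 genes were above the mean of other promoter rows in 6 of 6 libraries. This was true of 21% of 15024 protein-coding promoters with a row. No p is given for single genes either, for the same reason. A promoter mean over 50% was held by 6 of 9 genes and by 6.7% of protein-coding promoters. The median promoter mean was 80.3% over the 9 genes and 2.15% over all protein-coding promoters.

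In order of the promoter mean the genes were Tex101, Hormad1, Sycp3, Mael, Ddx4, Tdrd1, Sycp1, Dazl and Stag3. Library ranges of neighbours overlapped from Tex101 down to Tdrd1. The range of Tdrd1, 67.6% to 88.6%, lay above that of Sycp1, 0% to 64.2%, which in turn spanned that of Dazl, and Stag3 lay below Dazl in every library. Each value rests on different numbers of rows and reads, and read numbers per row are unknown.

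Dazl and Ddx4 act in the control of RNA in germ cells. Dazl (ENSMUSG00000010592.9, chr17:50279395-50293636, minus strand) encodes an RNA-binding protein needed for germ-cell development. Its 28 rows averaged 33.7%, 33.5% and 35.2% in STD1 to STD3 and 32.3%, 32.9% and 35.5% in ENR1 to ENR3. In bulk tissue a mixture of methylated and unmethylated cells or alleles cannot be told apart from partial methylation in all of them, but in Dazl the rows themselves differed. GENCODE gives Dazl an upstream-most start and another transcript of its basic set that begins 744 bp further inside the gene, and 18 rows over 113 bp lie nearest to that intragenic start. They averaged 2.93%, 1.48% and 0.841% in STD1 to STD3 and 0.688%, 1.71% and 4.29% in ENR1 to ENR3. Of these 18 rows, 7 were at 0% in all libraries and the highest averaged 10.7%, so that this segment was below the mean of other promoter rows in every library.

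The other 10 Dazl rows were at 89.1%, 91.1% and 97.2% in STD1 to STD3 and 89.2%, 89.2% and 91.7% in ENR1 to ENR3. They comprise 7 rows in the first intron, with a mean of 88.3%, and 3 rows upstream of the gene, with a mean of 98.1%. The nearest of these 10 rows lay 235 bp from a start, so the level at the upstream-most start itself was not measured. A gap of 353 bp that holds no row separates these 10 rows from the low rows. The intron row at the edge of that gap, at position 50293263, was the lowest of the 10, with 41.2% over 6 libraries, and the next intron row, at 50293328, was at 87.1%, so that part of the fall lay between measured rows. Both segments are CpG-rich, with mean observed to expected CpG ratios of 0.879 at the intragenic start and 0.722 in the other rows, as the first pair of printed sequences shows.

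**Figure D3:**
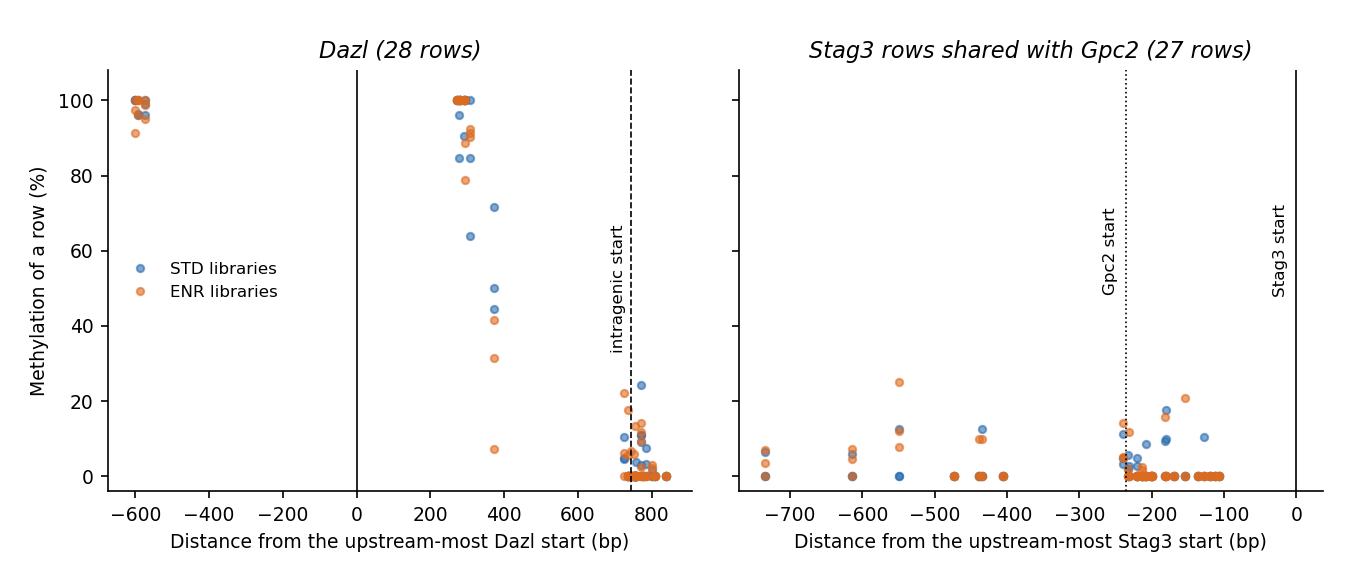
Methylation level (%) of single rows in each library against the distance from the upstream-most start (bp) of Dazl, left, and of Stag3, right, where negative is upstream. Dazl falls from rows near 100% to rows near 0% at its intragenic start (dashed line), and the 27 Stag3 rows around the Gpc2 start (dotted line) stay at or below 25%.

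Ddx4 (ENSMUSG00000021758.14, chr13:112598333-112652475, minus strand), the mouse Vasa homologue, encodes a germ-cell RNA helicase that also takes part in making piRNAs. Its 19 rows averaged 85.2%, 79.6% and 72.2% in STD1 to STD3 and 88.5%, 87.9% and 68.5% in ENR1 to ENR3. The lowest library in each group was the one numbered 3, which also had the lowest mean over all rows of the table in its group, 22.5% for STD3 and 21.3% for ENR3 against 23.9% to 24.3% in the other libraries. Its part in the Ddx4 values was not tested. The 4 rows on the minus strand, upstream of the gene, averaged 94.7%, and the 15 rows on the plus strand, in a UTR exon, averaged 76.5%.

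The 15 plus-strand rows lie within 65 bp and held marked dips. The lowest was the row at position 112652336, 35 bp upstream of the nearest start, which is the CpG of the printed E-box. GENCODE gives Ddx4 a pair of starts, and the exon of the longer transcript covers this row. It was at 40%, 35% and 35.7% in STD1 to STD3 and 50%, 50% and 29.4% in ENR1 to ENR3. The rows within 50 bp averaged 79.1% over 6 libraries, and the E-box row minus these was -39.1 points. A further dip, at position 112652348, averaged 48.1%, and the neighbours of the E-box at positions 112652328 and 112652340 averaged 90.1% and 90.8%. The dip at the E-box was therefore sharp on both sides and present in each of the 6 mice, and what sets this row apart was not tested.

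**Figure D4:**
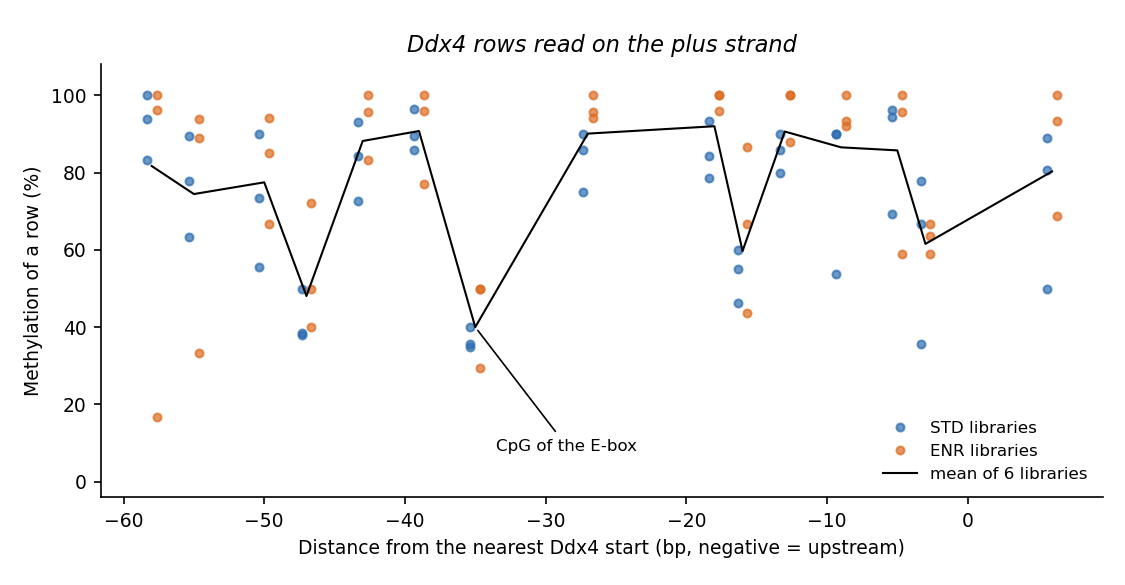
Methylation level (%) of the 15 plus-strand Ddx4 rows in each library against the distance from the nearest start (bp), with the mean of 6 libraries as a line. The CpG of the E-box, at -35 bp, is the lowest row with a mean of 40%, between neighbours at 90.8% and 90.1%.

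Mael and Tdrd1 act in the piRNA pathway, in which small RNAs silence transposons in germ cells, and Piwil1 is a PIWI protein that carries piRNAs. Mael (ENSMUSG00000040629.8, chr1:166201201-166238747, minus strand) had 4 rows upstream of its start, with a mean of 70.0%, 76.3% and 87.1% in STD1 to STD3 and 83.9%, 81.2% and 84.2% in ENR1 to ENR3. Its rows differed more than its libraries did. The row at position 166238798 averaged 56.5% and the row at 166238773 averaged 94.1%.

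Tdrd1 (ENSMUSG00000025081.13, chr19:56826209-56870012, plus strand) encodes a Tudor domain protein that binds PIWI proteins. Its 13 rows, 118 to 204 bp downstream of the nearest start, were at 72.7%, 74.4% and 67.6% in STD1 to STD3 and 74.3%, 88.6% and 70.2% in ENR1 to ENR3. ENR2 stood above the other libraries, and the other 5 lay within 67.6% to 74.4%. Single rows ran from 49.0% at position 56826468 to 88.5% at 56826482. The first of these CpGs was at 49.0% on the plus and 60.9% on the minus strand, and at another Tdrd1 CpG the strands differed by 23.7 points, the most among the 16 CpGs of germline promoters with both strands measured. Of these 16, 14 agreed within 10 points.

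Piwil1 (ENSMUSG00000029423.10, chr5:128702524-128755474, plus strand) could not be described at its promoter. Its 3 starts have 85 CpGs within 1 kb but only 4 CCGG sites, and no row lay there. The nearest of the 5 rows inside the gene lay 6455 bp from a start. At that row, position 128743945, the level was 100% in all libraries but ENR1, at 81.8%, and a row at position 128751438 was at 17.1% on average. The gene body rows are not promoter measurements and entered no count.

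Sycp1, Sycp3, Hormad1 and Stag3 build the chromosome structures of meiosis. Sycp3 (ENSMUSG00000020059.9, chr10:88459569-88473236, plus strand), a component of the axis along which meiotic chromosomes are organised, had 4 rows in its first intron. They averaged 82.4%, 89.3% and 81.4% in STD1 to STD3 and 92.5%, 70.8% and 88.4% in ENR1 to ENR3. ENR2 was the lowest, and in it the row at position 88459742 was at 30.8% and at 72.7% or more in the other 5 libraries.

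Hormad1 (ENSMUSG00000028109.14, chr3:95559677-95587671, plus strand), which marks unsynapsed chromosome axes, had 3 rows upstream of its start, the nearest at 421 bp. Their means were 93.2%, 89.6% and 86.6% in STD1 to STD3 and 87.5%, 94.6% and 89.7% in ENR1 to ENR3. All libraries were high and the groups overlapped. The 3 rows lie in masked repeat sequence, in a part with mean observed to expected CpG ratio under 0.6, and no row covers the CpGs next to the start, where the pair of E-boxes of Hormad1 is.

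Sycp1 (ENSMUSG00000027855.13, chr3:102818499-102936100, minus strand), which spans the space between paired chromosomes, had 1 row, 599 bp upstream of the start. It was at 64.2%, 47.1% and 25% in STD1 to STD3 and 58.3%, 30.4% and 0% in ENR1 to ENR3. This was the widest range of any gene, and in both groups the library numbered 3 was lowest. Against other promoter rows it was higher in 5 of 6 libraries. Its promoter windows hold 147 CpGs, so that 1 row is no measure of the promoter as a whole.

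Stag3 (ENSMUSG00000036928.14, chr5:138280240-138312393, plus strand) encodes a meiosis-specific cohesin subunit. Its 28 rows averaged 4.45%, 5.76% and 5.21% in STD1 to STD3 and 6.30%, 4.86% and 5.48% in ENR1 to ENR3, below other promoter rows in 6 of 6 libraries, with a mean difference of -1.03 points. Of these rows, 27 are also within 1 kb of a start of Gpc2, a glypican gene that points away from Stag3 and begins 235 bp from its upstream-most start, and 25 are nearer to a Gpc2 start than to one of Stag3. The 27 shared rows averaged 0.908%, 2.27% and 1.70% in STD1 to STD3 and 2.83%, 1.34% and 1.98% in ENR1 to ENR3, with 12 rows at 0% in all libraries. The remaining row, 1000 bp from an internal start and in a coding exon, was at 100% in all 6 libraries. The shared row nearest to Stag3 lay 107 bp before its upstream-most start, and no row covered the E-box of Stag3, so the level at the Stag3 start itself was not measured.

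Tex101 (ENSMUSG00000062773.6, chr7:24668007-24676675, minus strand) encodes a glycoprotein of the germ-cell surface that sperm need for fertility. It was the most methylated gene, with 9 rows at 93.1%, 91.4% and 94.5% in STD1 to STD3 and 89.2%, 97.2% and 97.5% in ENR1 to ENR3. Of all protein-coding promoters, 99.0% had a lower mean. Its rows ran from 84.9% to 98.9%.

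The design asks whether enriched housing changed methylation, and at these genes no change passed a test. With limma on promoter means, 0% of 14986 promoters and none of the 9 genes had an adjusted p under 0.05, and with limma on single rows 0% of 615152 rows were called. On simulated data the row fit called changes only when they spanned nearly the whole scale, so its count of 0 says little of smaller ones. The promoter fit called most of the changes put in. These were rises larger than any difference at the 9 genes, put into promoters of which most are under 10%. That outcome does not carry over to smaller differences or to promoters as methylated as these. Without adjustment, 657 promoters and 16498 rows had p under 0.05, and the smallest adjusted p over all promoters was 0.375. The groups overlapped at all 9 genes. They also overlapped at 13608 of 15024 protein-coding promoters, so 9 of 9 is near the share over all of them. They did not overlap at 9.42% of all protein-coding promoters and at 8.75% of those over 50%. The exact permutation test with 3 mice against 3 cannot go below p = 0.1. The difference ENR minus STD was -15.9 points at Sycp1 (limma adjusted p = 0.99), where it was -1.08 points without ENR3 and -30.2 points without ENR1. Tdrd1 differed by 6.11 points, between 71.6 ± 3.56% and 77.7 ± 9.65%, with 0.669 points without ENR2 and 9.87 points without ENR3. Mael differed by 5.30 points, between 77.8 ± 8.65% and 83.1 ± 1.62%, with 1.41 points without STD1 and 9.96 points without STD3, and Ddx4 by 2.63 points, between 79.0 ± 6.55% and 81.6 ± 11.4% (SD, n = 3 for each). The direction at Ddx4 turned without STD3 (-0.797 points), ENR1 (-0.811 points) or ENR2 (-0.523 points), and the difference was 9.21 points without ENR3. The genes with the narrowest spread were Dazl, at 34.1 ± 0.958% and 33.6 ± 1.69%, and Stag3, at 5.14 ± 0.657% and 5.55 ± 0.724%. Values were higher in ENR at 6 genes and lower at 3, beside 6976 higher and 8009 lower of all protein-coding promoters, and the number higher was 4 to 7 when 1 library was left out, with 4 of 9 without STD3. A difference as small as these could not be told from the spread between mice, which does not show that the groups are alike.

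**Figure D5:**
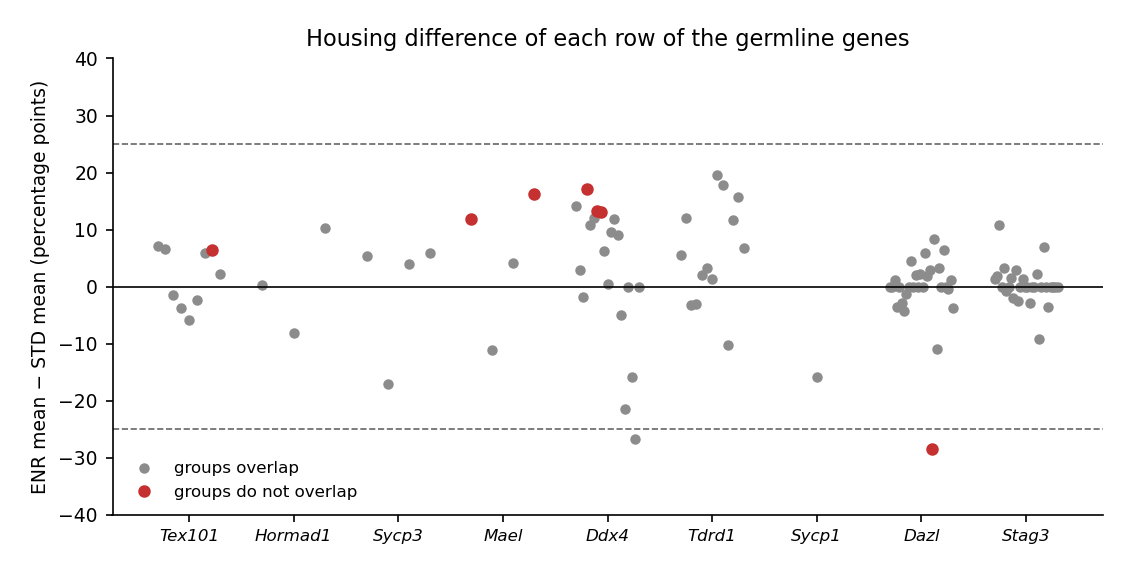
Difference ENR mean minus STD mean (percentage points) of each of the 109 rows, by gene, with rows whose groups do not overlap in red and dashed lines at 25 points. Only 2 rows, in Ddx4 and Dazl, pass 25 points, both lower in ENR, and 7 rows have groups that do not overlap.

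Among single rows, 2 of 109 (1.83%) had group means over 25 points apart, both lower in ENR, against 0.654% of promoter rows. The count was 6 without ENR1 and 0 after quantile normalization. The Ddx4 row, at position 112652503, was at 100% in 5 libraries and at 20% in ENR3, so that 1 library carries it. Methylated rows vary more, and of other promoter rows over 50%, 5.72% passed this limit, against 1 of 59 germline rows over 50%. The groups did not overlap at 7 rows (6.42%), against 2.37% of promoter rows, and among rows over 50% at 6 of 59 (10.2%) against 7.09%. All 6 were higher in ENR, while the 1570 such rows of other promoters split into 794 higher and 776 lower. Rows of 1 gene share reads and are not independent, and the split was not tested.

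Among the rows whose groups did not overlap, those with the lowest limma p in each direction were in Mael, Ddx4 and Dazl. The Mael row at position 166238806 was at 78.3%, 78.6% and 79.2% in STD1 to STD3 and 88%, 100% and 97% in ENR1 to ENR3. The Mael row at 166238773 was at 88.7%, 85% and 90.9% in STD1 to STD3 and 100% in all 3 ENR libraries. All ENR values at both rows were above all STD values, by 16.3 and 11.8 points on average. The Ddx4 row at position 112652319 was at 93.3%, 84.2% and 78.6% in STD1 to STD3 and 95.8%, 100% and 100% in ENR1 to ENR3, a difference of 13.2 points. In the opposite direction, the Dazl row at 50293263 was at 50%, 44.6% and 71.7% in STD1 to STD3 and 31.6%, 7.41% and 41.7% in ENR1 to ENR3, a difference of -28.5 points. For each of these 4 rows the exact permutation test gave p = 0.1, the smallest possible, and limma an adjusted p of 0.852 over all rows. The Dazl row is the one at the edge of the methylated segment.

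Other germline genes give the setting. Lists of genes of chromosome synapsis and axes, recombination, piRNA and transposon control, and germ-cell regulators held 66 genes, of which 37 had promoter rows. Promoter means were over 50% at 10, between 10% and 50% at 11 and under 10% at 16, beside 6.70%, 14.3% and 79.0% of all protein-coding promoters. By list, 0 of 6 measured synapsis genes, 0 of 8 recombination genes, 4 of 12 piRNA genes and 6 of 11 germ-cell regulators were over 50%, and the lists were not tested against each other. None of the listed genes was called between the housing groups by limma, where the smallest adjusted p was 0.99, and none had an unadjusted p under 0.05.

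The highest of these genes with at least 5 rows were Sohlh2 (94.1 ± 2.76%) and Stra8 (93.8 ± 6.50%), regulators of germ-cell differentiation and of entry into meiosis, then Tex14 (93.6 ± 4.67%), needed for the bridges between germ cells, and Slc25a31 (93.2 ± 1.67%), the testis ADP/ATP carrier (SD, n = 6). Next were Fkbp6 (92.6 ± 6.82%) and Pnldc1 (86.9 ± 5.25%), which trims piRNAs. The lowest were Ddx25 (0.874 ± 0.173%), a testis RNA helicase, Meiob (1.33 ± 0.675%), a recombination factor, and Prdm9 (1.46 ± 0.916%), which sets recombination hotspots. Germline use of a gene thus went with both ends of the methylation scale in this tissue.

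Genes of the machinery that silences germline promoters had levels near those of promoters in general. Of 19 listed genes, all measured, 15 had promoter means under 10%, beside 79.0% of all protein-coding promoters, among them E2f6 at 2.93%, Max at 1.54% and Dnmt3b at 1.55%. Ring1, Hdac1 and Dnmt1 lay between 10% and 50%, at 11.5%, 13.3% and 12.0%, and L3mbtl2 was at 95.2%, from 5 rows that lie 544 bp or more from a start. None was called between the housing groups by limma. Mga was the 1 gene with an unadjusted p under 0.05, at 0.374%, 0.717% and 0.327% in STD1 to STD3 and 1.90%, 1.24% and 1.74% in ENR1 to ENR3. Its groups did not overlap, nor did those of Ring1, beside 9.42% of all protein-coding promoters, and the adjusted p from limma was 0.99 for both.

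Some genes outside all lists had promoter levels like the mean of the 9 genes, which was 66.6%, 65.2% and 61.6% in STD1 to STD3 and 68.1%, 65.4% and 59.9% in ENR1 to ENR3. Of 13650 protein-coding genes with at least 5 rows, the nearest by root mean square distance over 6 libraries were Eif2ak4 at 1.68 points, Cmah at 2.88, Hpd at 3.33, Cpt1c at 3.38 and Exoc3l at 3.48. The likeness is one of level only.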

How the data were processed

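Methylation was measured by RRBS in 6 dentate gyrus libraries, 3 STD and 3 ENR, grouped by the sample titles. The authors trimmed reads with Trim Galore (0.4.0) and Cutadapt (1.8.1), aligned them to mm10 with Bismark (0.16.1) and extracted cytosines covered by at least 10 reads with methylKit (1.5.2), with the versions of the submitters' processing notes. The study's methods give later versions of Trim Galore and Bismark. The deposited table gives the percent of methylated reads per cytosine and library, without read numbers, so the depth of each value is unknown and no interval that needs it is given. Each strand of a CpG is its own row.

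Rows within 1 kb of a GENCODE M21 transcription start were assigned to every gene they reach. The 10 genes and all gene lists were chosen with earlier results of these data known. Promoter means (protein-coding genes) and single rows that vary between libraries were fitted with limma 3.58.1 (R 4.3.3, eBayes with a variance trend) and Benjamini-Hochberg adjustment over all of them. On simulated data the promoter fit called most of the changes put in and the row fit only the largest. At promoters these changes were rises, mostly from low methylation, and larger than any difference at the 9 genes. Exact permutation tests used the 20 regroupings of 6 libraries. Sign-flip tests of a gene against other promoter rows are not reported, since the genes were chosen with results known. Single rows named were the highest and lowest of a gene and, among rows whose groups do not overlap, up to 3 with the lowest limma p in each direction. Genes named from the lists were the 6 highest and 3 lowest with at least 5 rows, and genes most alike were the 5 nearest by root mean square distance. The rows around the Ddx4 E-box, the E-box comparison across promoters, the repeat masking, Dppa3, L3mbtl2 and the silencing genes and the Ddx4 row carried by 1 library were chosen after their values were seen. A further listed recombination gene, Iho1, was not matched to a GENCODE symbol and is not among the 66 listed germline genes.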

Additional observations from a re-analysis of the deposited data

How the results depend on the processing

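The level of the germline rows above other promoter rows stayed high under every alternative run. It was 43.2 points as reported and ranged from 42.7 to 43.5 when each library was left out. It was 47.7 points with the strands of a CpG averaged and 60.4 points with the median over rows. Chosen after seeing the data, leaving out the rows at the intragenic Dazl start gave 52.6 points, leaving out Stag3 58.5 points and leaving out both Dazl and Stag3 74.9 points. The count of genes above other promoter rows in all libraries was 6 to 8, and that of other germline genes over 50% was 10 to 11. No germline promoter and no germline row was called under any alternative, while the arcsine scale called 2 promoters elsewhere. Rows over 25 points apart numbered 2 as reported, 0 after quantile normalization, 0 with a limit of 40 points and 2 to 6 when a library was left out, the highest without ENR1. Directions of housing differences did not hold at 5 genes, none of them called. Dazl, at -0.566 points, was 0.0301 after quantile normalization and 2.27 with the median, and -1.52 to 0.0759 over left-out libraries. Left-out libraries gave -0.811 to 9.21 points at Ddx4, -4.74 to 6.10 at Sycp3 and -1.20 to 2.47 at Hormad1, and a window of 500 bp gave -0.108 at Stag3. Left-out libraries also gave -30.2 to -1.08 at Sycp1, 0.669 to 9.87 at Tdrd1 and 1.41 to 9.96 at Mael. The causes were not tested. Sycp1 has no value with at least 3 rows or with the 500 bp window.

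The sample titles do not say whether the shared replicate numbers pair the mice, and the values do not settle it. Deviations from the group means correlated at 0.0552, 0.0319 and 0.125 for numbers 1, 2 and 3. STD1 correlated best with ENR1 and STD3 with ENR3, whereas STD2 correlated best with ENR1 (0.0410). Number 3 of either group correlated negatively with numbers 1 and 2 of the other (-0.0820 to -0.0590). With the replicate number as a block, 0 promoters were called as without it, and 704 instead of 657 had an unadjusted p under 0.05. Sycp1, with its single row lower in ENR within each number, then had a limma p of 0.0336 instead of 0.360 (limma adjusted p = 0.937). The depth of single rows is unknown, so shallow and deep rows counted alike. With 3 mice a group, differences within the spread between mice could not be detected.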

Other observations

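The dip at the E-box of Ddx4 led to a count over all promoters, made after that value was seen. Promoter rows were taken whose neighbours within 50 bp numbered at least 3 and averaged over 50%. There were 40 rows, at 37 CpGs, inside CACGTG and 8119 rows in another sequence. Rows inside CACGTG averaged 69.7% and their neighbours 84.9%. The mean of row minus neighbours was -15.2, -13.8 and -13.7 points in STD1 to STD3 and -11.3, -19.3 and -17.8 points in ENR1 to ENR3, and it was -0.817 ± 0.0288 points (SD, n = 6) for rows in another sequence. Of the rows inside CACGTG 8 (20%) were more than 25 points below their neighbours, against 5.70% of the other rows. Among the 136 sequences of 6 bases around a CpG, strands combined, CACGTG had the lowest median difference, at -13.2 points, followed by AACGTC at -12 points over 37 rows and AACGTT at -11.5 points over 19 rows. Without the Ddx4 row the mean inside CACGTG was -14.6 ± 2.97 points. CpGs are not independent replicates, rows of 1 promoter share reads, and no test was run.

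Dppa3, a germ-cell regulator of the lists that protects methylation in the early embryo, was the listed germline gene over 50% whose housing groups did not overlap, as was the case at 8.75% of protein-coding promoters over 50%. Its 9 rows averaged 66.0%, 69.3% and 68.9% in STD1 to STD3 and 58.5%, 42.2% and 57.4% in ENR1 to ENR3. The difference was -15.4 points (exact permutation p = 0.1, the smallest possible, and limma adjusted p = 0.99).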
